A study of Mus musculus with 10 samples.

Results

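The 10 genes described here handle monoamines (dopamine, noradrenaline, serotonin and related small amines) or encode the SV2 glycoproteins of secretory vesicles, and they are 10 of the 55450 genes in the count table. The set was chosen by measured values: the counts of Slc18a2, Slc18a1, Slc6a3 and Sv2c differ between the genotypes compared here, so their values are given below as a description with no p-value. They were part of the fit over all genes, and its calls among them are counted once and support nothing. The other members are Sv2a, Sv2b, Th, Ddc, Maoa and Maob. RNA was sequenced from peeled corneal endothelium, the cell layer lining the back of the cornea, of C57BL/6 mice aged 12 weeks. One group carried no functional Slc4a11 (Slc4a11-/-, KO) and the other had it intact (Slc4a11+/+, WT), with 5 libraries each, named by genotype and number. Slc4a11 encodes a membrane transport protein of this tissue. Each library pooled peelings from 6 eyes of 3 animals, so the spread between libraries is one between pools. The labels state neither how the deletion was made nor the sex of the animals.

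Monoamines are made from aromatic amino acids. Tyrosine hydroxylase (Th) makes L-DOPA, and the decarboxylase Ddc turns it into dopamine and also makes serotonin from its precursor. The vesicular monoamine transporters VMAT1 (Slc18a1) and VMAT2 (Slc18a2) load amines into secretory vesicles in exchange for protons. VMAT2 is the form of neurons, platelets and mast cells, and VMAT1 that of neuroendocrine cells. The dopamine transporter (Slc6a3) takes dopamine back up through the plasma membrane, and the mitochondrial monoamine oxidases Maoa and Maob break amines down. SV2A, SV2B and SV2C are membrane proteins of synaptic and endocrine vesicles that resemble sugar transporters. They act in regulated secretion, and SV2 proteins are receptors of botulinum neurotoxins.

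The stretches of DNA just before the transcription starts of Slc18a2, Slc6a3, Sv2c and Sv2b are shown so that the coming values can be tied to a place in the genome. They are the 250 bases before the start in the RefSeq annotation of GRCm38.p6, written 5′ to 3′ on the strand of the gene. Capitals mark letters that match a searched motif. Slc18a2 starts after chr19:59260628-59260877 on the plus strand and Slc6a3 after chr13:73536497-73536746 on the plus strand. For Sv2c the window is chr13:96132578-96132827 and for the most upstream of the 4 starts of Sv2b it is chr7:75309263-75309512, both on the minus strand.
Slc18a2: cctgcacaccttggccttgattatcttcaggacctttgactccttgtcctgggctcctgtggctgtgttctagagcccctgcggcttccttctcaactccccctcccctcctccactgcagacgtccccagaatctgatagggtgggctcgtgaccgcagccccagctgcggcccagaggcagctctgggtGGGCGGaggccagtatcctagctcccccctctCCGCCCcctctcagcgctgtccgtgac
Slc6a3: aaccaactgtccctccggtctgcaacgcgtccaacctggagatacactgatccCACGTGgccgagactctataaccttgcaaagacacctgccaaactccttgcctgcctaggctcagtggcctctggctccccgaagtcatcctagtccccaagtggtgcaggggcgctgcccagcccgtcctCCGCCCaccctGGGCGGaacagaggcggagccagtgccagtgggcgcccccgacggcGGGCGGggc
Sv2c: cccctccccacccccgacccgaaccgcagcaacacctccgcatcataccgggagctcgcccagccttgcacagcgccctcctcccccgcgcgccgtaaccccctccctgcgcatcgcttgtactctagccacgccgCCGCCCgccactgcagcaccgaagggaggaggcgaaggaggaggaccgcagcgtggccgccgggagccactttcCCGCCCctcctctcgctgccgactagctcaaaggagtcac
Sv2b: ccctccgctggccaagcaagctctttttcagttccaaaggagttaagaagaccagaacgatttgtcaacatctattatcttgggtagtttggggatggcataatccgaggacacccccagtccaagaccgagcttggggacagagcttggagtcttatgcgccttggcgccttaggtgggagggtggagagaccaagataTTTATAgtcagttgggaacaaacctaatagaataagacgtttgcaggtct

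Of the 10 members, 8 have an entry in that promoter table, and Slc18a1 and Maob have none. Both strands of 32817 start regions of the same length were searched for 6 motifs. The GC box GGGCGG, on either strand, was in the windows of Slc18a2, Slc6a3, Sv2c, Sv2a, Th and Maoa, and in 32.7% of all windows. The window of Slc6a3 also held CACGTG, the E-box that clock factors can bind, as did the window of the third Sv2b start and 6.02% of all windows. That match contains ACGTG, the core letters of hypoxia response elements (16.6% of all windows), on both strands. The second Sv2b window held ACGTG as well. The first and second Sv2b windows and the first Ddc window held the TATA letters TATAAA in reverse, as did 12.4% of all windows in either orientation. The cyclic AMP response element TGACGTCA (1.55% of windows) was found before Th alone among the members, and AAAGGTCA (1.34%), the element that NR4A receptors bind, before Ddc alone. GC made up 64.0% of the Slc18a2 window, 66.0% of that of Slc6a3, 70.8% of that of Sv2c and 48.8% of that of Sv2b, against a median of 52.4% over all windows. These are matches of letters only.

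The libraries held 36026193 to 51008996 counts. Slc4a11 stood at 3489 to 4357 CPM (read counts scaled for library size and composition) in WT and at 70.1 to 114 CPM in KO, so it was low in every KO library. Of 17729 genes with enough counts to be tested, 15.3% differed between KO and WT (edgeR, adjusted p under 0.05), 7.59% being higher and 7.73% lower in KO. All 16 markers of corneal endothelium other than Slc4a11 were detected, with a summed level of 24380 to 27790 CPM in WT and 23780 to 28520 CPM in KO. That sum was led by Aqp1 (11860 CPM on average) and does not stand for each marker. Of the 17 markers with Slc4a11, 5 were called lower in KO, 1 higher and 11 neither, or 35.3% called. Slc4a11 itself is among the 5, and its call follows from the genotype. The 12 keratocyte markers, from the stroma, summed to 63440 to 96530 CPM in WT and 66870 to 89350 CPM in KO. The 15 epithelial markers summed to 69.96 to 248 CPM in WT, and to 74.8 CPM in KO 3, 297 in KO 4, 716 in KO 2, 2445 in KO 1 and 4610 in KO 5. KO 1, KO 2 and KO 5 therefore stand apart, and values without them are given beside the results. In such pieces of tissue, fewer cells of a type and less RNA per cell cannot be told apart.

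Among the vesicular transporters, the transcript of Slc18a2 (VMAT2; chromosome 19, 59260896 to 59296012 in GRCm38, plus strand) was lower in KO. Its levels in WT 1 to WT 5 were 11.4, 14.4, 9.88, 13.9 and 11.4 CPM, and in KO 1 to KO 5 they were 2.43, 2.49, 3.13, 3.27 and 1.82 CPM. The lowest WT library stood above the highest KO library. The mean was 12.2 ± 1.89 CPM in WT and 2.63 ± 0.586 in KO (SD, n = 5), with a log2 fold change of -2.21 (SE 0.16), or 4.64-fold lower. It was -1.92 once KO 1, KO 2 and KO 5 were all left out, and with any 1 library left out it lay between -2.30 and -2.11.

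Slc18a1 (VMAT1; chromosome 8, 69037711 to 69089235, minus strand) went the other way, at a lower level. WT 1 to WT 5 had 1.145, 1.21, 1.18, 1.03 and 1.17 CPM, from 42 to 59 counts, and KO 1 to KO 5 had 2.69, 2.42, 2.78, 2.74 and 2.72 CPM, from 102 to 128 counts. No KO library reached down to the WT range, and the KO libraries lay within a narrow band, KO 5 with its many epithelial transcripts included. The log2 fold change was 1.22 (SE 0.11), or 2.33-fold higher, and 1.27 with KO 3 and KO 4 alone.

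Set against each other per length of exon, the transporters went from mostly Slc18a2 to about equal parts. In WT, Slc18a2 made up 91.5% ± 1.44 of their summed CPM per kb (SD, n = 5), and in KO 49.9% ± 5.70. The share in single KO libraries ran from 40.9% in KO 5 to 55.3% in KO 4, and in WT from 89.6% to 93.3%. There were 11.07 ± 2.095 Slc18a2 transcripts per Slc18a1 transcript in WT and 1.02 ± 0.214 in KO on that scale. The gain of Slc18a1 was smaller than the loss of Slc18a2, as the sum went from 2.55 ± 0.358 to 0.998 ± 0.122 CPM per kb. Using the length of the longest transcript instead, Slc18a2 had 88.1% in WT and 40.7% in KO.

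**Figure D1:**
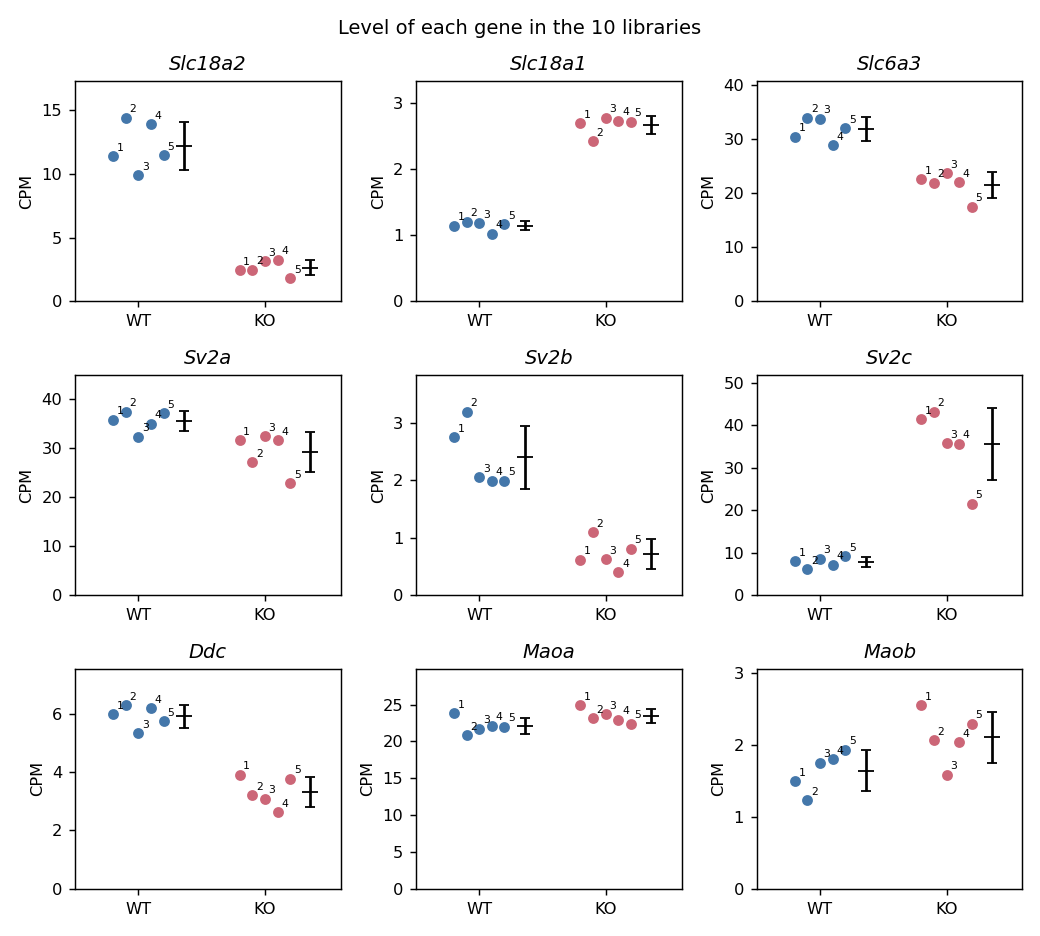
Level in CPM of 9 members in the 5 WT (blue) and 5 KO (red) libraries, each point a library marked by its number, with the mean and SD in black and axes from 0. WT and KO points do not overlap for Slc18a2, Slc18a1, Slc6a3, Sv2b, Sv2c and Ddc, and they overlap for Sv2a, Maoa and Maob.

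The dopamine transporter Slc6a3 (chromosome 13, 73536747 to 73578672, plus strand) was lower in KO by a smaller amount. Its levels were 30.5, 34.02, 33.8, 28.9 and 32.1 CPM in WT 1 to WT 5, and 22.6, 22.0, 23.7, 22.1 and 17.5 CPM in KO 1 to KO 5. All KO libraries lay below all WT libraries, and KO 5 lay below the other KO libraries. The means were 31.9 ± 2.19 and 21.6 ± 2.38 CPM (SD, n = 5), a log2 fold change of -0.56 (SE 0.08), or 1.48-fold lower. It was -0.49 without KO 5 and -0.47 without KO 1, KO 2 and KO 5. Per length of exon, Slc6a3 was the most abundant member in WT, with 9.23 ± 0.632 CPM per kb. With the longest transcript as the length, its WT libraries (8.37 to 9.84 CPM per kb) overlapped those of Sv2a (7.47 to 8.66).

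Of the SV2 genes, Sv2c (chromosome 13, 95954594 to 96132577, minus strand) was higher in KO. WT 1 to WT 5 had 7.93, 6.15, 8.58, 7.10 and 9.13 CPM, and KO 1 to KO 5 had 41.3, 43.2, 35.7, 35.6 and 21.5 CPM. The genotypes did not overlap, but KO 5 had far less than the other KO libraries. The log2 fold change was 2.19 (SE 0.17), or 4.56-fold, and between 2.11 and 2.33 with 1 library left out, the highest value being that without KO 5. Against KO 3 and KO 4 alone it was 2.20. Slc6a3 and Sv2c lie on the same chromosome far apart, and no member lies on chromosome 2, which holds Slc4a11.

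Sv2b (chromosome 7, 75114894 to 75309262, minus strand) was the scarcest SV2 gene and lower in KO. Its levels were 2.75, 3.20, 2.05, 1.99 and 2.00 CPM in WT 1 to WT 5 and 0.620, 1.10, 0.630, 0.403 and 0.805 CPM in KO 1 to KO 5. These are 90 to 143 counts against 15 to 52, with no overlap. The log2 fold change was -1.74 (SE 0.24), or 3.34-fold lower. It was -2.18 without KO 1, KO 2 and KO 5, and -1.95 without KO 2.

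Sv2a (chromosome 3, 96181151 to 96195521, plus strand), the form found in nearly all synapses, was the most abundant SV2 gene per length of exon in both genotypes, although Sv2c had the higher mean CPM in KO. WT 1 to WT 5 had 35.9, 37.5, 32.4, 35.0 and 37.2 CPM, and KO 1 to KO 5 had 31.6, 27.2, 32.5, 31.7 and 22.9 CPM. KO 3 overlapped the lowest WT library, and KO 5 was again the lowest. The log2 fold change of -0.29 (SE 0.09) became -0.21 without KO 5 and -0.14 with KO 3 and KO 4 alone. KO 5 also had the lowest sum of endothelial markers, 23780 CPM, and the highest sum of epithelial markers, and the part of either in the SV2 values was not tested.

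The make-up of the SV2 family therefore differed between the genotypes. Per length, Sv2a made up 87.6% ± 1.16, Sv2c 9.18% ± 1.53 and Sv2b 3.25% ± 0.669 of the family's transcripts in WT (SD, n = 5). In KO, Sv2a made up 63.1% ± 4.57, Sv2c 36.1% ± 4.53 and Sv2b 0.879% ± 0.386. The share of Sv2c ran from 6.96% to 10.9% in WT and from 30.6% in KO 5 to 42.6% in KO 2. KO 5, the lowest in Sv2c CPM, thus kept a Sv2c share well above every WT library. The summed level of the 3 genes was 8.77 ± 0.452 CPM per kb in WT and 10.03 ± 1.58 in KO, where KO 5 (7.25) lay below the WT range and the other KO libraries (10.5 to 11.2) above it.

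**Figure D2:**
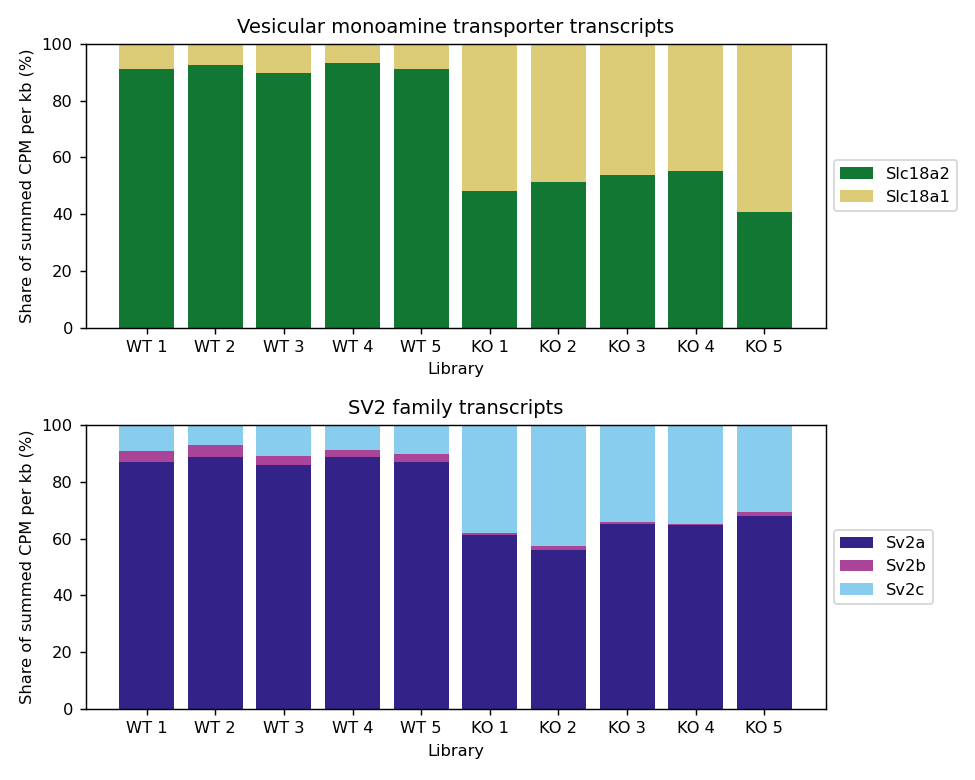
Share in percent of each gene in the summed CPM per kb of exon, for the vesicular monoamine transporters (top) and the SV2 genes (bottom), 1 bar per library. Slc18a2 takes 91.5% of the upper bars on average in WT and 49.9% in KO, and Sv2c takes 36.1% of the lower bars in KO against 9.18% in WT.

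Related genes can exchange reads where their sequences are the same. Over aligned bases of the longest open reading frame, Slc18a1 and Slc18a2 were 68.4% identical, and the SV2 pairs 68.1% to 70.2%. The longest run of identical bases in any pair of annotated transcripts was 15 for Slc18a1 with Slc18a2, 15 for Sv2a with Sv2b, 18 for Sv2a with Sv2c and 37 for Sv2b with Sv2c. No member shared exonic bases with another gene that had counts.

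The synthesis enzymes were scarce. Th (chromosome 7, 142892752 to 142931128, minus strand) had 0 counts in all 10 libraries, which allows up to 0.0588 to 0.0833 CPM per library (3 counts of the total, for counting error only). Ddc (chromosome 11, 11814101 to 11898144, minus strand) was present at 5.97, 6.28, 5.33, 6.18 and 5.75 CPM in WT 1 to WT 5 and at 3.91, 3.20, 3.09, 2.63 and 3.77 CPM in KO 1 to KO 5. The genotypes did not overlap for Ddc. Its log2 fold change was -0.83 (SE 0.12), or 1.78-fold lower, and -1.04 with KO 3 and KO 4 alone. KO 1 and KO 5, the libraries richest in epithelial transcripts, had the highest Ddc levels of the KO group, and the part of epithelium in them was not tested.

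The degrading enzymes overlapped between the genotypes. Maoa (chromosome X, 16619698 to 16687818, plus strand) was at 20.8 to 23.8 CPM in WT (median 21.98) and 22.4 to 24.9 CPM in KO (median 23.2). Its values were the steadiest of the set, and the genotypes overlapped, with a log2 fold change of 0.08 (SE 0.05). Maob (chromosome X, 16709282 to 16817366, minus strand) was at 1.23 to 1.94 CPM in WT (median 1.75) and 1.59 to 2.55 CPM in KO (median 2.07). These ranges overlapped too, with a log2 fold change of 0.36 (SE 0.16) that was 0.14 with KO 3 and KO 4 alone.

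Of the 10 members 9 passed the filter on low counts into the fit over all genes, where 2 were called higher and 4 lower in KO, while 15.3% of all genes tested were called. The ranges of both genotypes were apart for 6 of them, against 12.0% of all tested genes. Since the set was picked for its differences in this comparison, these counts follow from the choice. Without KO 1, KO 2 and KO 5, 2 were higher and 4 lower, where 5.99% of tested genes were called.

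**Figure D3:**
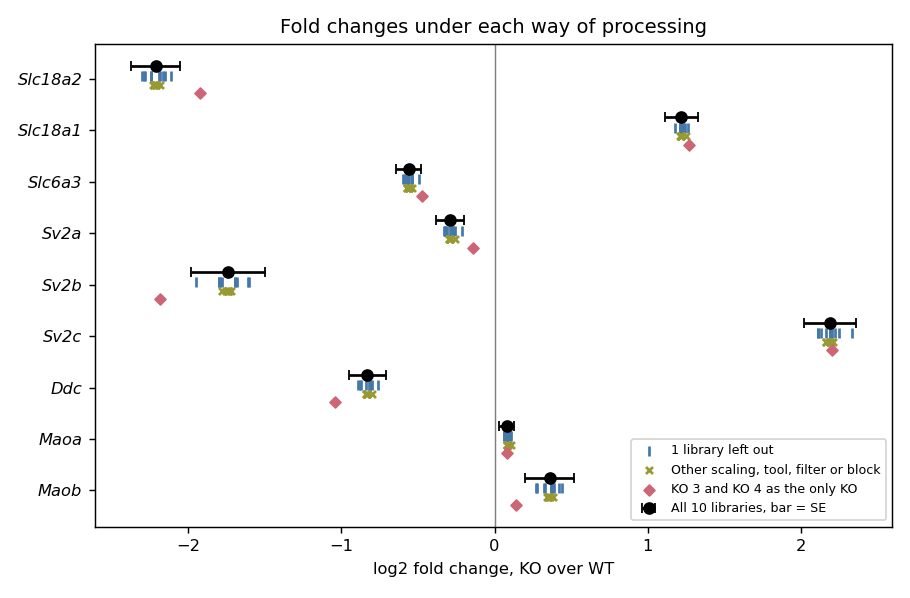
Log2 fold change of KO over WT for the 9 tested members with all libraries (black, bar = SE), with 1 library left out (blue ticks), with another scaling, tool, filter or block (crosses) and without KO 1, KO 2 and KO 5 (red diamonds). No value of Slc18a2, Slc18a1, Slc6a3, Sv2b, Sv2c or Ddc crosses 0.

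The order of the levels per length also differed. In WT it was Slc6a3 (9.23 CPM per kb), Sv2a (7.68), Maoa (5.30), Slc18a2 (2.33), Ddc (1.32), Sv2c (0.802), Maob (0.589), Sv2b (0.286) and Slc18a1 (0.212), with Th at 0. Only Sv2c and Maob, as neighbours in that order, overlapped between libraries. In KO, Sv2a (6.29), Slc6a3 (6.25) and Maoa (5.62) overlapped and could not be ranked. Sv2c had moved up to the fourth place (3.66), and Maob (0.756), Ddc (0.744), Slc18a2 (0.503) and Slc18a1 (0.495) each overlapped their neighbour. Sv2b (0.0848) came last of those detected. With the longest transcript as the length, Ddc (2.92) stood just above Slc18a2 (2.78) in WT, the libraries overlapping. The WT libraries of Slc6a3 and Sv2a, of Maob and Sv2b, and of Sv2b and Slc18a1 overlapped on that length too. On that length Slc18a1 (0.858) also stood above Slc18a2 (0.598) in KO, with no overlap, so their order in KO depends on the length used.

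**Figure D4:**
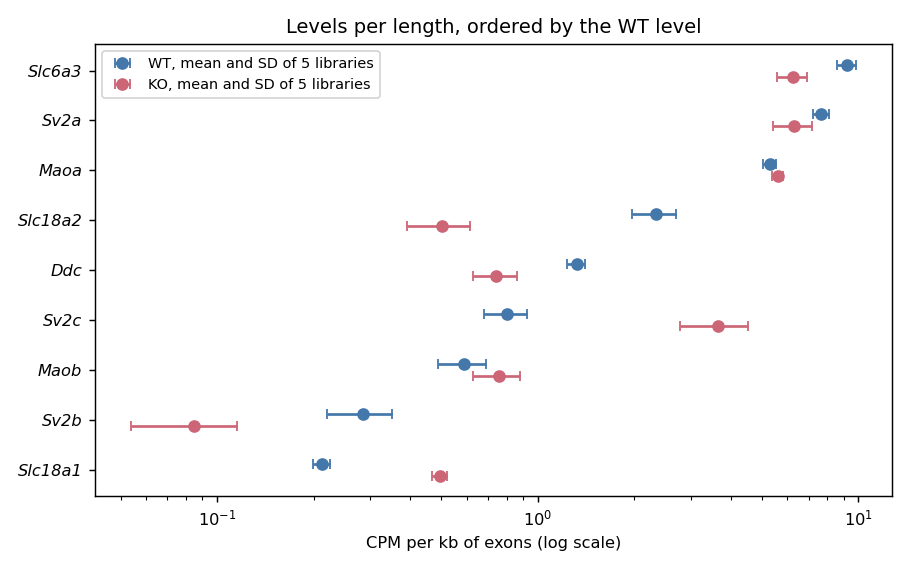
Mean level per kb of exon on a log scale in WT (blue) and KO (red), with the SD of 5 libraries, ordered by the WT level and without Th, which had no counts. Sv2c and Slc18a1 lie to the right in KO, and Slc18a2, Sv2b, Ddc and Slc6a3 to the left.

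Markers of cells known to carry these genes were mostly scarce. Of 11 mast cell markers 3 had no count (Fcer1a, Mrgprb1 and Mrgprb2), and the proteases Cpa3, Mcpt4, Cma1, Tpsb2 and Tpsab1 reached at most 0.158 CPM in any library, where Slc18a2 had 12.2 CPM in WT. Kit, which other cells also express, reached 5.61 CPM. The summed mast cell level was 7.71 to 11.5 CPM in WT and 6.33 to 11.5 CPM in KO, most of it from Hdc, the histamine synthesis enzyme. Of 8 platelet markers Treml1 and Tubb1 had no count, Ppbp, Gp9 and Gp1ba reached at most 0.262 CPM, and Pf4 and Itga2b reached 5.19 and 3.14 CPM. The platelet sum, led by Gp1bb, was 10.9 to 14.2 CPM in WT and 13.3 to 19.8 CPM in KO. For sympathetic and other neurons, Dbh, Phox2a and Hand2 reached at most 0.0477 CPM. Other neuronal markers were detected, with mean CPM in WT and KO of 1.58 and 2.13 for Nefm, 0.303 and 0.474 for Tubb3, and 0.0985 and 0.2925 for Nefl. Snap25 (0.170 and 0.119 CPM) and Hand2 had lower means in KO. Single markers here other than those at 0 and the most abundant were named after their values were seen. The neuronal sum, mostly Uchl1, was 7.08 to 9.78 CPM in WT and 10.35 to 13.5 CPM in KO. It was higher in every KO library, as Slc18a1 and Sv2c were. Within genotypes its r (Pearson's, as described next) was -0.25 with Slc18a1 and -0.65 with Sv2c, and a tie between them was not tested. Other lists also moved: the Schwann cell sum was 234 to 269 CPM in WT and 252 to 319 CPM in KO, that of leukocytes 270 to 412 and 343 to 553 CPM, that of vascular endothelium 102 to 153 and 81.9 to 104 CPM, nearly all of it Kdr, while the other 7 vascular markers had higher means in KO, and that of pigment cells 3.60 to 7.84 and 4.54 to 17.0 CPM. Their part in the members' values was not tested.

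Within a genotype the members varied in part together. Over the 10 libraries, after the mean of each genotype was removed from log2 CPM, Pearson's r was 0.81 between Slc18a2 and Sv2a, 0.73 between Slc6a3 and Sv2a, and 0.66 between Slc6a3 and Sv2c. Slc18a1 and Slc18a2, which differed in opposite directions between the genotypes, had an r of -0.04 within them. The summed endothelial markers had an r of 0.82 with Sv2a, 0.69 with Sv2c, 0.57 with Slc18a2 and -0.20 with Slc18a1. The summed epithelial markers had an r of -0.69 with Slc18a2, -0.63 with Sv2a, -0.43 with Sv2c and 0.68 with Ddc. Other marker sums had values as large: -0.86 for Slc18a1 with keratocytes and -0.70 with leukocytes, -0.81 for Slc6a3 with neurons, and 0.77 for Ddc and 0.71 for Sv2b with mast cells. All of these points share libraries and their scaling, and the values describe these pools only. Slc18a1 had 42 to 59 counts in WT libraries and 102 to 128 in KO libraries. Its SD was 6.14% of its mean in WT and 5.34% in KO, no more than counting error gives at such counts. The r values of Slc18a1 may thus hold sampling noise only.

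By the same measure, among 10398 genes whose mean reached 5 CPM, the nearest to Sv2c were Rab8b (0.976), a small GTPase of vesicle traffic, the bicarbonate cotransporter Slc4a7 (0.966) and Ahcyl2 (0.962). The nearest to Slc6a3 were Tcaf1 (0.975), the potassium channel Kcnk5 (0.968) and the topoisomerase Top3b (0.965). For Slc18a2 they were the lipid transporter Abca7 (0.939), Zfp319 (0.924) and Zfp574 (0.923), and for Slc18a1 Serpinb6b (0.964), the keratin Krt20 (0.942) and Chn2 (0.941), a regulator of Rac. Those of Slc18a1 are the highest values among 10398 genes for a member that varied within genotypes no more than counting error would give. The 6 genes nearest to Sv2c and Slc6a3 did not pass the test between the genotypes (edgeR adjusted p = 0.41 to 0.98). Some of the others moved opposite to their member: Abca7 rose by 0.52 on the log2 scale (edgeR adjusted p = 0.0037), while Chn2 fell by 0.83 (edgeR adjusted p = 1.1e-05) and Serpinb6b fell by 0.54 (edgeR adjusted p = 0.025). Krt20, Zfp319 and Zfp574 did not pass (edgeR adjusted p = 0.21, 0.73 and 0.77).

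Among other genes of monoamine synthesis and breakdown, 14 of 21 enzymes were tested, and 2 rose, 1 fell and 11 did not pass. That is 21.4% called against 15.3% of all tested genes, with a median log2 fold change of -0.03 against 0.00. Gch1, which makes the cofactor of the amine hydroxylases, rose from 0.475 ± 0.160 to 1.19 ± 0.502 CPM (SD of 5 libraries, a log2 change of 1.32, SE 0.32, edgeR adjusted p = 0.018). It was not called without KO 1, KO 2 and KO 5 (0.53, edgeR adjusted p = 0.43). Pcbd1, which recycles the cofactor, fell from 10.8 ± 1.19 to 7.72 ± 1.14 CPM (log2 change -0.48, SE 0.11, edgeR adjusted p = 0.016). The most abundant was the aldehyde dehydrogenase Aldh2, at 322 ± 30.7 and 309 ± 15.2 CPM, which did not pass (edgeR adjusted p = 0.62). With KO 3 and KO 4 alone none rose and 1 fell (1 and 2 at an unadjusted p under 0.05 in edgeR).

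Most other amine and vesicular transporters were too scarce to test. Of 16 listed, 4 were tested, and 2 rose and none fell (median 0.46), where 7.59% of all tested genes rose and 7.73% fell. The noradrenaline transporter Slc6a2 rose from 0.104 ± 0.0315 to 0.302 ± 0.0432 CPM (SD of 5 libraries, a log2 change of 1.52, SE 0.28, edgeR adjusted p = 0.0037), on 88 counts in all. Slc6a2 passed the filter on low counts through its KO libraries (0.261 to 0.358 CPM), with 0.079 to 0.1565 CPM in WT. It could thus enter the list only as a rise, and the count of 2 and the median of 0.46 rest in part on that. The vesicular nucleotide transporter Slc17a9 rose from 2.11 ± 0.432 to 3.40 ± 0.583 CPM (log2 change 0.69, SE 0.17, edgeR adjusted p = 0.020), and was not called without KO 1 (edgeR adjusted p = 0.052). The most abundant, the vesicular polyamine transporter Slc18b1 of the VMAT family, was at 14.3 ± 1.38 and 16.8 ± 0.905 CPM (edgeR adjusted p = 0.054), and was called by DESeq2 (adjusted p = 0.038). No gene of the list fell at an unadjusted p under 0.05 in edgeR, DESeq2 or limma-voom (0 of 4 in each). In KO 3 and KO 4 against WT 0 rose, and 2 had an unadjusted p under 0.05 in edgeR. The vesicular transporters of acetylcholine (Slc18a3) and of GABA and glycine (Slc32a1) had no count in any library.

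Receptors for monoamines changed in both directions. Of 33 receptor genes 12 were tested, 2 rose, 3 fell and 7 did not pass (median -0.27), and 7 had no count at all. That is 41.7% called, against 15.3% of all tested genes. Adra2c and Adra2a encode inhibitory alpha-2 adrenergic receptors and went opposite ways. Adra2c rose from 11.1 ± 1.68 to 24.5 ± 4.93 CPM (SD of 5 libraries, a log2 change of 1.15, SE 0.14, edgeR adjusted p = 2.7e-04), with 9.50 to 13.5 CPM in WT and 19.5 to 32.1 CPM in KO. Adra2a fell from 3.48 ± 0.733 to 0.977 ± 0.226 CPM (log2 change -1.83, SE 0.19, edgeR adjusted p = 1.2e-04), with 2.48 to 4.44 CPM in WT and 0.760 to 1.28 CPM in KO. The alpha-1 receptor Adra1b fell from 11.3 ± 1.14 to 5.73 ± 1.13 CPM (log2 change -0.98, SE 0.13, edgeR adjusted p = 5.3e-04). None of these 3 receptors overlapped between WT and KO libraries, and each was called with KO 3 and KO 4 alone (0.89, -2.01 and -1.05; edgeR adjusted p = 0.0036, 0.0016 and 0.0036).

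Among the dopamine receptors, Drd2 rose from 0.110 ± 0.0974 to 0.485 ± 0.261 CPM (SD of 5 libraries, a log2 change of 2.08, SE 0.51, edgeR adjusted p = 0.019), on 126 counts in all. Drd2 passed the filter on low counts through its KO libraries (0.308 to 0.939 CPM), with 0.01975 to 0.272 CPM in WT. It could thus enter the receptor count only as a rise. The log2 change of Drd2 was 2.76 without WT 4 (edgeR adjusted p = 0.0067). Its call was lost without WT 3 (2.02, edgeR adjusted p = 0.050) and with KO 3 and KO 4 alone (2.46, edgeR adjusted p = 0.054). Drd1 was at 31.1 ± 2.63 CPM in WT against 27.5 ± 1.62 CPM in KO, and did not pass (edgeR adjusted p = 0.092). The serotonin receptor Htr1f fell from 1.02 ± 0.273 to 0.339 ± 0.141 CPM (edgeR adjusted p = 0.0040), and was not called with KO 3 and KO 4 alone (-1.12, edgeR adjusted p = 0.070). Htr1f passed the filter on low counts through its WT libraries (0.736 to 1.37 CPM), with 0.1895 to 0.478 CPM in KO. The count of 3 receptors that fell with all libraries rests in part on that. Htr5b, another serotonin receptor and the receptor with the highest CPM of the list, was at 76.1 ± 12.7 CPM in WT against 89.3 ± 9.61 CPM in KO (edgeR adjusted p = 0.18). Drd1 and Htr1f were named after their values were seen. With KO 3 and KO 4 alone 1 receptor rose (Adra2c) and 3 fell (Adra2a, Adra1b and Adra1d, the last not called with all libraries).

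Genes of vesicle release were called in both directions. Of 44 genes for vesicle fusion, vesicle membrane proteins and dense-core cargo, 31 were tested, 3 rose, 5 fell and 23 did not pass (median -0.01), or 25.8% called against 15.3% of all tested genes. The synapsin Syn2 rose from 9.08 ± 1.32 to 15.2 ± 0.916 CPM (SD of 5 libraries, a log2 change of 0.74, SE 0.10, edgeR adjusted p = 4.9e-04) and the synaptotagmin Syt11 by 0.34 (SE 0.08, edgeR adjusted p = 0.017). The fusion protein Vamp2 fell from 93.3 ± 3.63 to 74.2 ± 3.36 CPM (log2 change -0.33, SE 0.05, edgeR adjusted p = 0.0013). Further genes, named after their values were seen, were Syngr2, which rose by 0.25 (edgeR adjusted p = 0.027) and shares exonic bases with Gm20708, and Vamp1, Syngr1 and the secretory chaperone Scg5, which fell by 0.63, 0.25 and 0.37 on the log2 scale (edgeR adjusted p = 0.021, 0.014 and 0.022). Of these 4 genes Syngr1 alone was called with KO 3 and KO 4 alone. Single libraries mattered too: Syngr2 lost its call when KO 1, KO 4, KO 5, WT 3 or WT 5 was left out (0.21 to 0.24), Vamp1 without WT 3 or without WT 5 (-0.55 and -0.59), and Scg5 without WT 5 or KO 2 (-0.36 and -0.32). The carboxypeptidase Cpe of secretory granules was the most abundant, at 162 ± 24.2 and 162 ± 17.5 CPM (edgeR adjusted p = 0.97). Of 33 genes of the list tested with KO 3 and KO 4 alone, 2 rose and 2 fell, where 5.99% of all tested genes were called.

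Transcription factors that specify monoamine neurons were mostly not detected at a level to test. Of 17 listed, 4 were tested and 5 had no count, among them Pitx3 and Foxa2 of dopamine neurons. Lmx1b, a homeodomain factor of dopamine and serotonin neurons and of the anterior eye, was the most abundant and fell from 361 ± 24.7 to 283 ± 16.0 CPM (SD of 5 libraries, a log2 change of -0.35, SE 0.07, edgeR adjusted p = 0.0041). Lmx1b was at -0.35 with KO 3 and KO 4 alone and not called (edgeR adjusted p = 0.052). Gata3, which acts in sympathetic and serotonin neurons, fell from 0.847 ± 0.139 to 0.290 ± 0.0892 CPM (log2 change -1.54, SE 0.23, edgeR adjusted p = 0.0011), with an edgeR adjusted p of 0.044 with KO 3 and KO 4 alone. None rose, also at an unadjusted p under 0.05 (0 of 4 in edgeR, DESeq2 and limma-voom), and 2 did not pass. The median of the 4 was -0.35, and of all tested genes 7.73% fell. Gata3 passed the filter on low counts through its WT libraries (0.731 to 1.07 CPM), with 0.1895 to 0.391 CPM in KO. The count of 2 falls in this list rests in part on that.

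**Figure D5:**
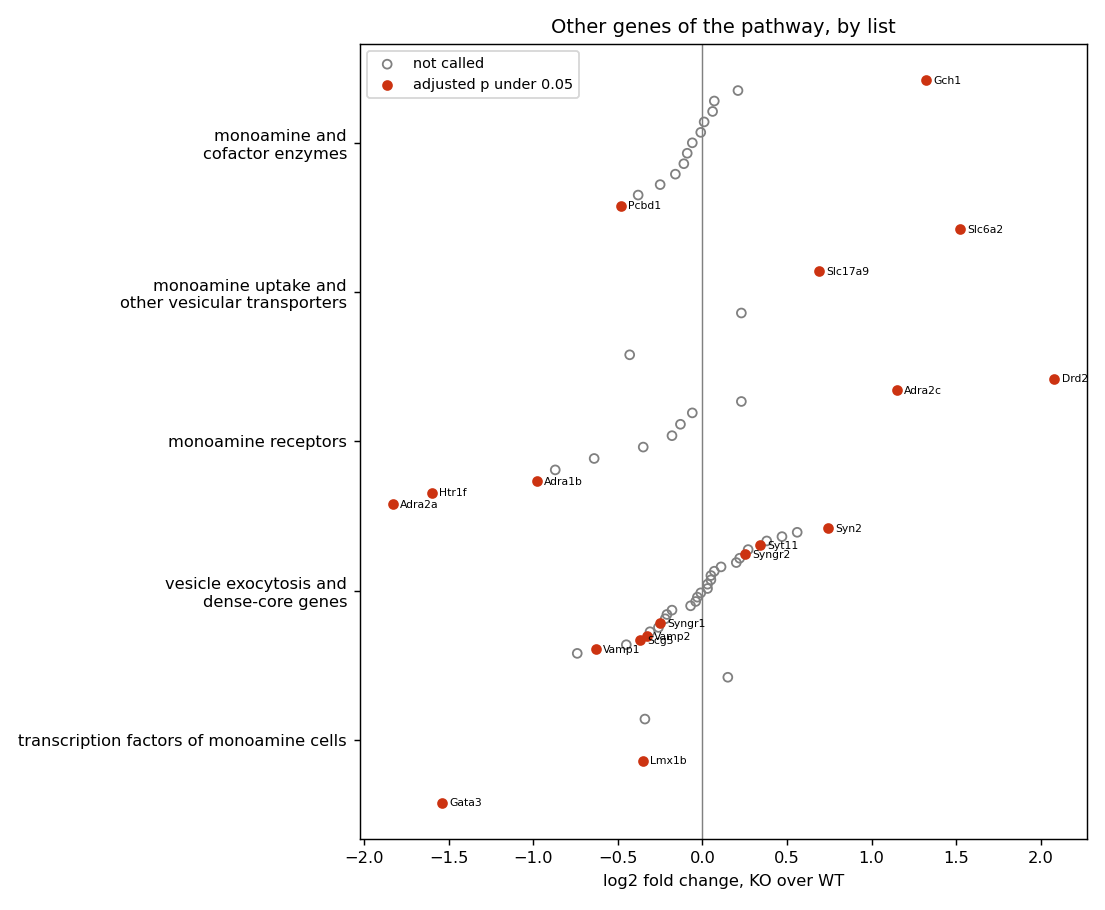
Log2 fold change of KO over WT for the tested genes reported from the 5 lists of other pathway genes, filled and named where the edgeR adjusted p was under 0.05, with the height within a list only separating the points. Adra2c and Drd2 lie to the right and Adra2a, Htr1f and Adra1b to the left in the receptor list.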

How the data were processed

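Polyadenylated RNA from pooled corneal endothelial peelings was sequenced in 5 KO and 5 WT libraries with a stranded kit, per the labels. The authors deposited raw read counts per gene. The tools were HISAT2 2.1.0, cutadapt 2.4, Trim Galore 0.6.4, Subread 1.6.4 and featureCounts, with GRCm38.p6, per the submitters' processing notes; the strand setting and the treatment of multi-mapping reads: not given in the sources used here. All 55450 gene identifiers matched GENCODE vM21 (GRCm38), which gave symbols, positions and exon lengths.

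Libraries were grouped by genotype label. Genes were kept by filterByExpr (minimum count 10, minimum total 15), scaled by TMM and tested with the quasi-likelihood test of edgeR 4.0.16 in R 4.3.3, Benjamini-Hochberg adjusted over 17729 genes, called at an adjusted p under 0.05; the code was tested on simulated data. Total counts were 36026193 to 51008996 per library, the common biological coefficient of variation was 16.3%, and counting error weighs most on the scarcest genes. CPM per kb uses the union of exons. P-values judge the difference between the genotypes against the spread between these pools, not between single animals.

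Members, lists and alternatives were chosen with earlier results of these data known. Named genes were the members, Slc4a11, in each list the most abundant gene and, per direction, the 2 called genes of smallest p, and the 3 most similar genes (mean of at least 5 CPM, predicted genes left out) of Slc18a1, Slc18a2, Slc6a3 and Sv2c. Alternatives were DESeq2 size factors, total counts, DESeq2 1.42.0, limma-voom (limma 3.58.1), no filter on low counts, at least 1 CPM in 5 libraries, the replicate number as a block, each library left out, and the longest transcript as length. Leaving out KO 1, KO 2 and KO 5 together was added after seeing the data. All pairs of replicates differed by more than sampling noise (chi-square over its degrees of freedom 13.5 to 78.9). Counts over the lists cover all their tested genes; values of some single genes are not reported here.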

Additional observations from a re-analysis of the deposited data

Results flagged for a closer look

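Of 74 groups of 5 libraries looked at (members, named list genes and summed markers), 5 held a library far from the other 4, where chance flags about 1 in 20. Slc18a1 was at 2.42 CPM in KO 2 and at 2.69 to 2.78 CPM in the other KO libraries. Slc6a3 was at 17.5 CPM in KO 5, the library with the most epithelial transcripts, and at 22.0 to 23.7 CPM in the others. Drd2 was at 0.939 CPM in KO 4, against 0.308 to 0.453 CPM. Cpe was at 131 CPM in KO 2, against 165 to 177 CPM. In WT, Lmx1b was at 318 CPM in WT 1, against 367 to 380 CPM in the other libraries.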

How the results depend on the processing

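No alternative turned the direction of a member that was called or of a called gene named from the lists. Over all genes, 1346 were higher and 1370 lower in KO, and leaving out 1 library gave 836 (without WT 3) to 1532 higher (850 without WT 5, 895 without KO 1) and 965 to 1666 lower. Scaling to total counts gave 1555 higher and 1054 lower, a share of 59.6% higher among the calls against 49.6%. Without KO 1, KO 2 and KO 5 together 527 were higher and 578 lower, and with the replicate block 750 were higher and 941 lower. The replicate numbers did not pair the samples: deviations of libraries with the same number had correlations of -0.416 to 0.085, and 0 of 5 WT libraries correlated best with the KO library of the same number. Among members, 2 were higher under each library left out, and 4 to 5 lower.

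In the lists, the number of enzymes higher (2) was 1 with total counts, 1 without a filter on low counts, 1 with the CPM filter, 0 with the replicate block and 0 with KO 3 and KO 4; that lower (1) was 2 with DESeq2 and 2 with the replicate block. Transporters higher (2) were 1 with the CPM filter, 1 with the replicate block and 0 with KO 3 and KO 4. Receptors higher (2) were 1 with the CPM filter and 1 with KO 3 and KO 4, vesicle genes lower (5) were 2 with KO 3 and KO 4, and transcription factors lower (2) were 1 with the CPM filter and 1 with KO 3 and KO 4. Leaving out 1 library gave 1 to 2 enzymes higher (1 without WT 1, WT 3, WT 4, WT 5, KO 1, KO 2 or KO 4) and 1 to 2 lower (2 without WT 4, KO 2 or KO 4), 1 to 3 transporters higher (1 without KO 1), 1 to 2 receptors higher (1 without WT 3) and 3 to 5 lower (5 without WT 1), 2 to 4 vesicle genes higher and 3 to 6 lower (3 without WT 5), and 2 to 3 transcription factors lower. With the longest transcript as length, levels in WT were 0.368 CPM per kb for Slc18a1 (0.212 with the union of exons), 2.78 for Slc18a2, 8.21 for Sv2a, 0.434 for Sv2b and 2.92 for Ddc; Slc18a2 had 88.1% of the transporter pair in WT and 40.7% in KO, and Sv2b 4.55% of the SV2 sum in WT. The cause of these shifts was not tested, beyond the fewer libraries or genes and other lengths used. Depth limits the called genes with few counts over all libraries, such as Slc6a2 (88), Drd2 (126), Gata3 (251), Htr1f (303) and Gch1 (365).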
